A study of Mus musculus with 4 samples.

Results

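Nr4a1, Nr4a2, Nr4a3, Egr1, Egr2, Egr3, Nfatc1, Nfatc2, Nfatc3 and Rcan1 were examined as a set of 10 genes of the response to T cell receptor signalling through calcium, calcineurin and NFAT. They were chosen by name for that role, with earlier results of these data known, and all 10 were among the 18378 genes tested, out of 49490 genes in the table. RNA was sequenced from CD8+ T cells of mice, the lymphocytes that kill infected and tumour cells, isolated from spleen and lymph node and then activated in culture. There were 2 libraries labelled Irf8 knockout, written Irf8-/- in the series' design, and 2 labelled WT, whose Irf8 alleles are flanked by recombination sites (Irf8fl/fl). No label or text used here gives the Cre line, strain, age, stimulus or time in culture, or says whether replicate libraries stem from different animals, so each p below reflects only how these libraries vary, and that variation could be technical. No resting sample was analysed here, so levels in activated cells were compared between genotypes and induction itself was not measured.

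A T cell receptor signal releases calcium from internal stores and opens calcium channels of the plasma membrane. Calcium and calmodulin activate the phosphatase calcineurin, which strips phosphates from NFAT proteins and lets them enter the nucleus, where they act with AP-1. EGR and NR4A factors are transcribed within the early phase of activation, EGR genes mainly through the ERK pathway and serum response factor, and NR4A genes in proportion to signal strength, for which Nr4a1 is a common reporter. NFAT acting without enough AP-1 and the NR4A factors are both known for their part in exhaustion and hyporesponsiveness of CD8+ T cells, and Egr2 and Egr3 for their part in anergy.

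The libraries held 59091255 and 59489280 reads in the knockout-labelled group and 58899365 and 59724952 in the WT-labelled group. Irf8, the targeted gene, had normalized counts of 89508 and 90222 in the libraries labelled knockout, against 6364 and 6081 in those labelled WT, which goes against the labels, so directions below follow the labels alone, as knockout-labelled over WT-labelled. T cell markers were present in every library, but 14 of the 15 were lower in the libraries labelled knockout and Tcf7 was higher, with a summed normalized count of 436851 and 448393 in the libraries labelled knockout and 679665 and 668426 in those labelled WT. The most abundant, Thy1 and Cd3e, fell by 0.64 and 0.69 on the log2 scale. All 10 markers of plasmacytoid dendritic cells were higher, with sums of 281462 and 281651 in the libraries labelled knockout and 27691 and 27266 in those labelled WT, and none was at 0 in any library. Bst2 rose 3.63-fold and Siglech 418-fold. Of 16 myeloid and conventional dendritic cell markers tested, 10 were higher and 3 lower, with sums of 373443 and 372820 in the libraries labelled knockout and 48494 and 51010 in those labelled WT, and Cd74, with means of 259254 in the libraries labelled knockout and 16197 in those labelled WT, made up most of the sum in the libraries labelled knockout. Tyrobp rose by 5.13 on the log2 scale. Among the other higher genes of that list, Cd68, Fcer1g and S100a8 rose by 2.62, 2.74 and 4.26, and Batf3 and Clec9a by 1.98 and 6.34. The 3 lower genes were Lyz2, Itgam and C1qb, which fell by 0.54, 0.94 and 1.53, and Csf1r, Adgre1 and Xcr1 did not pass. Of 9 B cell markers tested, 5 were higher and 0 lower, with sums of 8752 and 8698 in the libraries labelled knockout and 363 and 327 in those labelled WT. Fcrla and Cd79b rose 256-fold and 8.17-fold. In bulk RNA, fewer cells of a type and less RNA per cell cannot be told apart, and the part of these other cells in the results below was not tested.

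Of the 10 genes, 7 were lower and 0 higher in the libraries labelled knockout (limma, adjusted p under 0.05), against 13.4% of all genes tested that were lower and 19.9% that were higher. The 7 were all 3 NR4A genes, Egr1 and all 3 NFAT genes. On a scale centred on T cell markers, described further on, Nr4a1, Nr4a2, Egr1 and Nfatc1 were called higher. Nr4a3, Nfatc2 and Nfatc3 were not called there, at 0.18, 0.13 and 0.017. On that scale 65.0% of all genes tested were higher and 0.767% lower. On the authors' scaling the log2 fold changes of the 7 lay between -0.56 for Nfatc3 and -0.17 for Nr4a1, so that their means were 67.9% to 88.6% of the WT-labelled means. The median of the 10 genes was -0.26, while that of all genes tested was 0.02 and that of the T cell markers -0.61. In 9 of the 10 genes both libraries labelled knockout lay below both libraries labelled WT, as in 32.3% of all genes tested, and in Rcan1 both lay above, as in 36.5%. With 2 libraries a group the smallest two-sided p of an exact permutation test is 0.3333, so none was run for single genes.

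**Figure D1:**
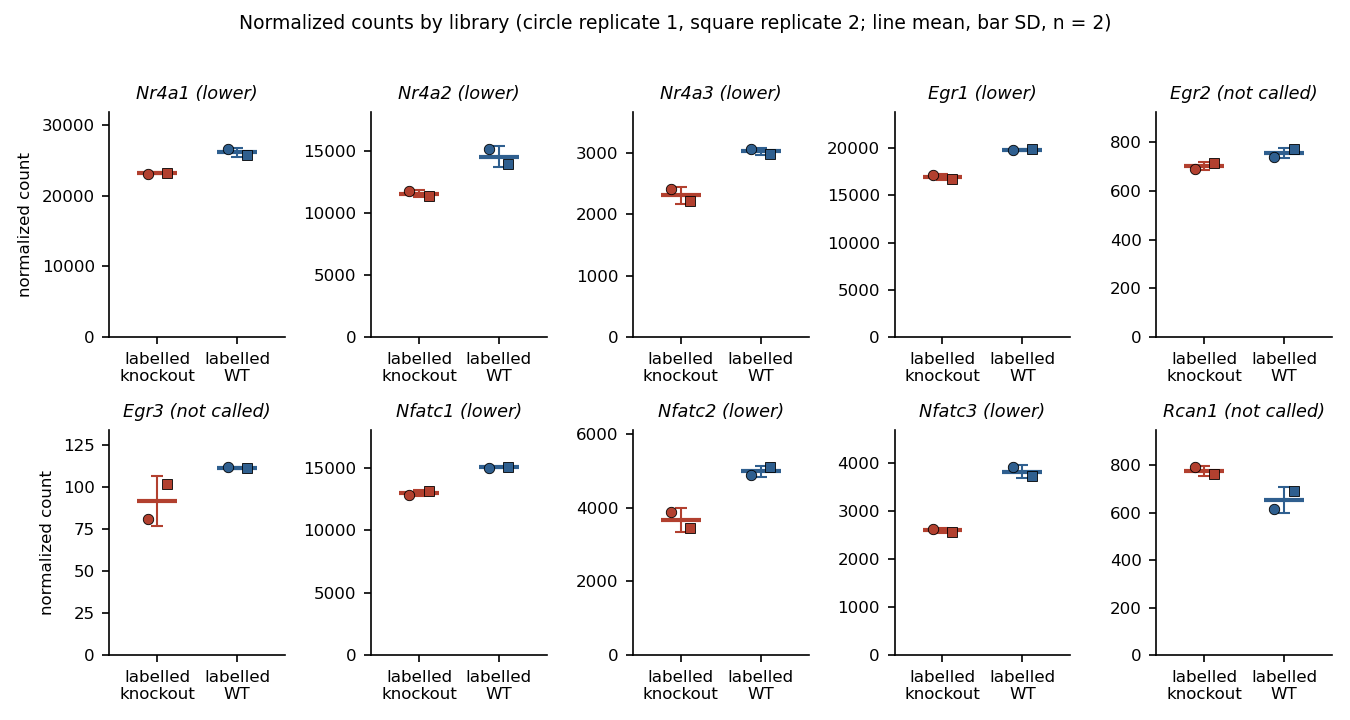
Normalized counts (vertical axes, starting at 0) of the 10 genes in each library, with the libraries labelled knockout left of those labelled WT; symbols are libraries, lines group means and bars the SD of 2 libraries. The points of the groups do not overlap in any panel, and Rcan1 is the gene whose libraries labelled knockout are higher on the authors' scaling.

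Nr4a1, which encodes the orphan nuclear receptor Nur77, had normalized counts of 23042 and 23232 in the libraries labelled knockout, against 26526 and 25680 in the libraries labelled WT. The libraries labelled knockout were the lower pair, with a mean of 23137 ± 135 against 26103 ± 599 (SD, n = 2 each). The log2 fold change was -0.17 (SE 0.03; limma, adjusted p = 0.00796), with a 95% confidence interval of -0.25 to -0.10. That call was lost without knockout-labelled replicate 1 (adjusted p = 0.0711 by limma) and without knockout-labelled replicate 2 (adjusted p = 0.0571), while the fold change stayed at -0.17 and -0.18. Nr4a1 had the largest level of the 10 genes for its exon length in every library.

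Nr4a2, which encodes Nurr1, had 11773 and 11379 in the libraries labelled knockout, against 15158 and 13991 in the libraries labelled WT. Its log2 fold change was -0.33 ± 0.05 (SE; limma, adjusted p = 0.00304). Nr4a3, which encodes NOR1, had 2404 and 2211 in the libraries labelled knockout, against 3055 and 2986 in the libraries labelled WT. Its log2 fold change was -0.39 ± 0.06 (SE; limma, adjusted p = 0.00501). The 3 receptors bind related DNA elements and are often considered redundant, and here the log2 fold changes ran from -0.17 for the most abundant to -0.39 for the least abundant. Within the family, counted per exon length, Nr4a1 made up 66.5% and 67.6% in the libraries labelled knockout and 64.0% and 65.0% in those labelled WT. Nr4a2 made up 29.4% and 28.6% in the libraries labelled knockout and 31.6% and 30.6% in those labelled WT, and Nr4a3 made up 4.07% and 3.77% in the libraries labelled knockout and 4.32% and 4.43% in those labelled WT. These shares do not depend on the scaling between libraries, and for each of the 3 genes the libraries of the groups did not overlap, although the shift was a few percentage points. The 3 shares make up a whole, so they are not separate observations. By counts, the groups did not overlap in 36.5% of all genes tested upwards and in 32.3% downwards. How often family shares do so was not computed.

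The region before the start site of Nr4a1 is shown because this gene is the most used readout of T cell receptor signalling. It holds the AP-1-like element TGCGTCA and an EGR site (GCGGGGGCG, on the opposite strand), which are in capitals. The stretch is the 250 bases upstream of the RefSeq start at chromosome 15, position 101266846 (GRCm38.p6, the assembly of mm10, plus strand). It lies inside the annotated gene but holds no annotated exon.
Nr4a1, chr15:101266596-101266845: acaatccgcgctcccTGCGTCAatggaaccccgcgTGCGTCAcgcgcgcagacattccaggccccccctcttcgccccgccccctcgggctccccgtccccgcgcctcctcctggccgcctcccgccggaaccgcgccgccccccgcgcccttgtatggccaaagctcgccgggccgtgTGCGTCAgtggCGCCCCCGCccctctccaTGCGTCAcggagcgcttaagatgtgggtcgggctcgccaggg
TGCGTCA occurs there 4 times, with the nearest copy ending 36 bases before the start, and the EGR site lies 60 to 52 bases before it. Of 32851 promoter stretches of 250 bases in the RefSeq table, 1.75% hold TGCGTCA on either strand and 2.57% hold GCGGGGGCG. TGCGTCA and TGACGT were added to the search after these sequences had been seen, so their shares cannot show whether these matches are unusual. The stretch before Nr4a3 holds the core of the cyclic AMP response element, TGACGT, 3 times, as at least once in 6.47% of all stretches. That stretch crosses the annotated start of the gene. Of its 250 bases 152 lie in annotated exons, among them the copy 147 to 142 bases before the start. None of the letters searched was found in the stretch before Nr4a2. A match describes letters and shows no binding.

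Egr1, a zinc finger factor of the immediate early response, had 17166 and 16717 in the libraries labelled knockout, against 19773 and 19881 in the libraries labelled WT. The libraries labelled knockout were the lower pair, with means of 16941 ± 317 and 19827 ± 76.1 (SD, n = 2 each). The log2 fold change was -0.23 ± 0.03 (SE; limma, adjusted p = 0.00287). Egr2, which is induced with it and restrains T cell receptor responses, had 691 and 713 in the libraries labelled knockout, against 741 and 771 in the libraries labelled WT. Its groups did not overlap, but its log2 fold change of -0.11 (95% confidence interval -0.33 to 0.12, adjusted p = 0.421 by limma) did not pass. Egr3, a close relative of Egr2, had 81.3 and 102 in the libraries labelled knockout, against 112 and 111 in the libraries labelled WT. Its log2 fold change was -0.29 with an interval of -0.84 to 0.26 and an adjusted p of 0.375 by limma, and it was -0.13 without knockout-labelled replicate 1 and -0.45 without knockout-labelled replicate 2. Between 83 and 110 reads per library stood behind Egr3, and the exact 95% Poisson interval of the library with 83 reads, which covers counting error only, ran from 66.1 to 103 reads. A change of the size seen in Egr1 was therefore not detectable for Egr3 at this depth.

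Per exon length Egr1 made up 94.5% and 94.1% of the family in the libraries labelled knockout and 94.8% and 94.6% in the libraries labelled WT. Egr2 made up 5.02% and 5.30% in the libraries labelled knockout, against 4.69% and 4.84% in those labelled WT. The libraries labelled knockout thus held the larger Egr2 share, by less than 1 percentage point. By counts, both libraries labelled knockout lay above both labelled WT in 36.5% of all genes tested, and how often family shares separate was not computed.

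The stretch before an inner start of Egr2 is shown because it holds a CArG box, the element bound by serum response factor, through which EGR genes are known to be switched on. The CArG box lies 72 to 63 bases before the start at chromosome 10, position 67537869 (plus strand), and the core TGACGT, on the opposite strand, 56 to 51 bases before it. Both are in capitals, and the stretch lies inside the gene but holds no annotated exon. Stretches before the Egr2 starts at positions 67537870 and 67537930 overlap it and share the CArG box. The stretch before the start at position 67537566 does not overlap it and holds a different CArG box and the NFAT core TGGAAA.
Egr2, chr10:67537619-67537868: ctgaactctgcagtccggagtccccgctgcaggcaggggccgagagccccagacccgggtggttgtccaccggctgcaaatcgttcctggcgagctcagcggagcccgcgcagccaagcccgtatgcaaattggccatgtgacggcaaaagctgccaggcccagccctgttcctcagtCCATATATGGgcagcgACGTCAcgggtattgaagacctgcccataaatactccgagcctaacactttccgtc
A CArG box is found in 1.47% of all 32851 stretches, and among the 7 members with a RefSeq window (all but Egr1, Egr3 and Nfatc1) Egr2 alone held one. The composite ETS-IRF element, at which IRF8 can bind with PU.1, and the interferon-stimulated response element were in none of the 14 stretches of these 7 genes, against 2.3% and 2.98% of all stretches, searched on both strands. At such shares a result of none was likely in 14 stretches, some of them overlapping, so it does not bear on whether IRF8 binds at these genes.

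Nfatc1 encodes the NFAT protein whose short isoform is induced by NFAT itself after activation. It had 12834 and 13194 in the libraries labelled knockout, against 15043 and 15071 in the libraries labelled WT, so the pairs stood well apart. The log2 fold change was -0.21 ± 0.03 (SE; limma, adjusted p = 0.00489), and the call was lost without knockout-labelled replicate 1 (-0.19, adjusted p = 0.0533 by limma). Nfatc2, the NFAT protein already present in resting T cells, had 3890 and 3441 in the libraries labelled knockout, against 4881 and 5097 in the libraries labelled WT. Its log2 fold change was -0.45 ± 0.07 (SE; limma, adjusted p = 0.00395). Nfatc3, which is best known in thymocytes and acts beside Nfatc2, had 2629 and 2560 in the libraries labelled knockout, against 3911 and 3727 in the libraries labelled WT. It had the lowest fold change of the 10 genes, -0.56 ± 0.06 (SE; limma, adjusted p = 5.58e-04), with an interval of -0.69 to -0.42. The 3' end of Nfatc3 overlaps an exon of Esrp2 on the other strand, and Esrp2 had 30.4 and 33.1 in the libraries labelled knockout and 71.2 and 66.4 in those labelled WT. Whether the counting used strand is not known here, so reads of this overlap cannot be told apart.

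The NFAT genes did not fall by the same amount. Per exon length the ratio of Nfatc1 to Nfatc3 was 7.66 and 8.09 in the libraries labelled knockout, against 6.04 and 6.35 in the libraries labelled WT. The ratio of Nfatc1 to Nfatc2 was 4.67 and 5.43 in the libraries labelled knockout, against 4.36 and 4.19 in the libraries labelled WT. In both ratios the libraries labelled knockout were the higher pair, and neither depends on the scaling between libraries. By counts, both libraries labelled knockout lay above both labelled WT in 36.5% of all genes tested. That share is for single genes on the authors' scaling, and how often a ratio of genes separates was not computed. The ratio of Nfatc2 to Nfatc3 overlapped between the groups, at 1.64 and 1.49 in the libraries labelled knockout and 1.38 and 1.52 in those labelled WT. Nfatc1 made up 74.4% and 76.5% of the family per exon length in the libraries labelled knockout and 71.7% and 71.6% in those labelled WT. The 95% confidence intervals of the fold changes of Nfatc1 (-0.29 to -0.13) and Nfatc3 (-0.69 to -0.42) did not meet.

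Rcan1 encodes a calcineurin inhibitor that NFAT switches on from an inner start site, which makes it a feedback readout of calcineurin. It had 792 and 761 in the libraries labelled knockout, against 614 and 693 in the libraries labelled WT. The libraries labelled knockout were the higher pair, but the log2 fold change of 0.25 (standard error 0.10, 95% confidence interval -0.0022 to 0.50) did not pass, with an adjusted p of 0.117 by limma. The fold change was 0.34 without WT-labelled replicate 2 and 0.16 without WT-labelled replicate 1, and -0.050 when each library was centred on its median gene. Relative to Nfatc1 and Nfatc3 in the same library, Rcan1 stood higher in the libraries labelled knockout than in those labelled WT. By counts, such a separation upwards was found in 36.5% of all genes tested, and how often ratios separate was not computed. Per exon length the ratio of Rcan1 to Nfatc3 was 1.14 and 1.13 in the libraries labelled knockout and 0.596 and 0.707 in those labelled WT, and that of Rcan1 to Nfatc1 was 0.149 and 0.140 in the libraries labelled knockout and 0.0988 and 0.111 in those labelled WT.

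The stretches before the inner and the outer start of Rcan1 (chromosome 16, minus strand) are shown side by side because the table gives 1 value per gene, which adds up transcripts from both. Capitals mark the NFAT core TGGAAA, read on the opposite strand, the AP-1 site TGACTCA and the cyclic AMP response element TGACGTCA.
Rcan1 inner start, chr16:92400079-92400328: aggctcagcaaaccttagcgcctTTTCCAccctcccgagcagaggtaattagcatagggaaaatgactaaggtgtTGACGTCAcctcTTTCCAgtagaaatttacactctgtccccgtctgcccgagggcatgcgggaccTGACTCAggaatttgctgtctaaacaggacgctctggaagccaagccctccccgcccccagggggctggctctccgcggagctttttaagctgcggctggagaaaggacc
Rcan1 outer start, chr16:92466170-92466419: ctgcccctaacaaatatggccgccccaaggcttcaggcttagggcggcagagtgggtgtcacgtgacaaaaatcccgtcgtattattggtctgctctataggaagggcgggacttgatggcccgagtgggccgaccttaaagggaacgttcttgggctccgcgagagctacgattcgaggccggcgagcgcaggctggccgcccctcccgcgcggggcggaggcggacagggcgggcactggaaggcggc
The inner stretch holds TGGAAA at 227 to 222 and at 163 to 158 bases before the start, TGACTCA at 110 to 104 and TGACGTCA at 175 to 168. The outer stretch holds none of the letters searched. TGGAAA is found in 18.6% of all stretches, TGACTCA in 4.46% and TGACGTCA, which contains TGACGT, in 1.55%. Of the 7 members with a RefSeq window, 3 held TGGAAA. Besides Rcan1 these were Egr2, at 65 to 60 bases before another of its starts, and Nfatc2, at 200 to 195. Both Rcan1 stretches lie inside the annotated gene but hold no annotated exon. Whether the inner or the outer transcript was the higher in the libraries labelled knockout cannot be read from a value per gene.

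Side by side, per exon length, the genes spanned a wide range of levels. In the libraries labelled knockout the order was Nr4a1 (6594 normalized counts per kilobase of exon), Egr1 (3778), Nr4a2 (2852), Nfatc1 (1742), Nr4a3 (385), Nfatc2 (347), Rcan1 (252), Nfatc3 (221), Egr2 (207) and Egr3 (20.8). In the libraries labelled WT it was Nr4a1 (7439), Egr1 (4422), Nr4a2 (3591), Nfatc1 (2016), Nr4a3 (505), Nfatc2 (472), Nfatc3 (326), Egr2 (222), Rcan1 (212) and Egr3 (25.3). Neighbours in this order did not overlap between libraries, except Egr2 and Rcan1 in the libraries labelled WT. Rcan1 was therefore above Nfatc3 and Egr2 in both libraries labelled knockout, below Nfatc3 in both labelled WT and not apart from Egr2 there. Among 17714 tested genes with an exon length, Nr4a1 stood at percentile 97.1 in the libraries labelled knockout and 97.3 in those labelled WT, and Egr3 at 18.6 in the libraries labelled knockout and 25.5 in those labelled WT.

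**Figure D2:**
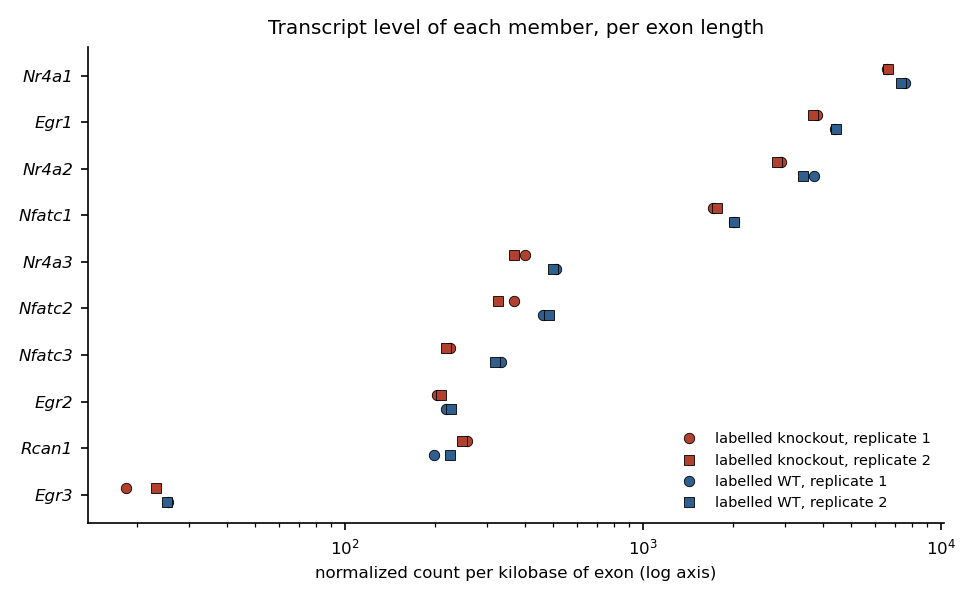
Normalized counts per kilobase of exon (log axis) of the 10 genes in each library, with the libraries labelled knockout drawn above those labelled WT in each row. The mean of Nr4a1 was 6594 in the libraries labelled knockout and 7439 in those labelled WT, and that of Egr3 20.8 in the libraries labelled knockout and 25.3 in those labelled WT.

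The direction of change depended on what the genes were measured against. Most T cell markers were lower and all plasmacytoid dendritic cell markers higher in the libraries labelled knockout, and the part of other cells in this was not tested. All 10 genes had a fold change above the T cell marker median of -0.61. When each library was centred on the 15 T cell markers, 6 of the 10 were higher and 0 lower by limma, but 65.0% of all genes tested were higher on that scale and 0.767% lower, and the median of all genes lay at 0.59. Rcan1 then had a log2 fold change of 0.82 (adjusted p = 7.29e-04 by limma), Egr2 of 0.47 (0.00462), Nr4a1 of 0.40 (7.11e-05), Nfatc1 of 0.36 (1.63e-04), Egr1 of 0.35 (2.81e-04) and Nr4a2 of 0.24 (0.00405). Nr4a3, Egr3, Nfatc2 and Nfatc3 did not pass there, at 0.18, 0.29, 0.13 and 0.017. The interval of Nfatc3 ran from -0.12 to 0.15 on that scale. When each library was centred on its median gene, which moved the median of all genes to -0.28, 8 of the 10 were lower, where 39.2% of all genes were lower and 13.0% higher, and Egr2 was the added one at -0.41.

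**Figure D3:**
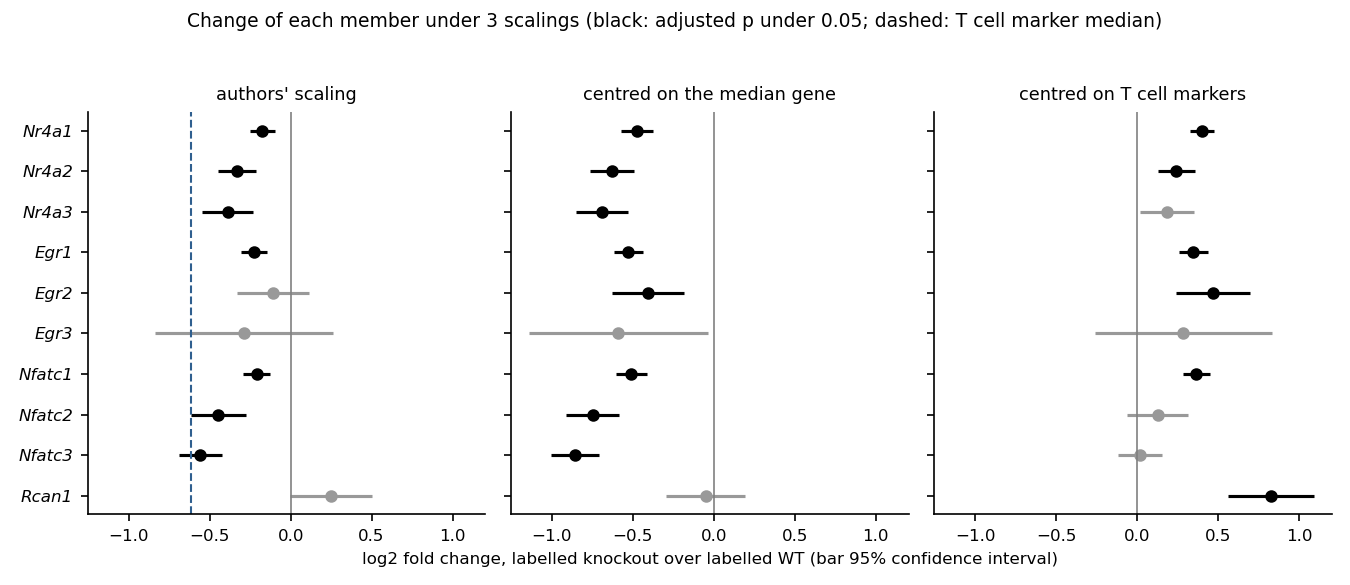
Log2 fold change (horizontal axis) of the 10 genes with 95% confidence intervals, on the authors' scaling, centred on the median gene and centred on T cell markers; black marks an adjusted p under 0.05, and the dashed line the T cell marker median of -0.61. In the left panel every point lies right of the dashed line, while the intervals of Egr3, Nfatc2 and Nfatc3 cross it. Of the genes, 7 are called lower in the left panel, 8 in the middle panel, and 6 are called higher in the right panel.

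The genes that carry the signal to NFAT moved in both directions. Across all genes tested 13.4% were lower and 19.9% higher, against 0.767% lower and 65.0% higher on the scale centred on T cell markers. Of 16 genes of calcium entry and clearance, 3 were higher, 4 lower and 9 not called, with a median of -0.08, while all 16 were higher on the scale centred on T cell markers. Orai3, a subunit of calcium release-activated channels, rose by 1.14 on the log2 scale, with means of 5217 ± 97.6 in the libraries labelled knockout and 2375 ± 263 in the libraries labelled WT (SD, n = 2 each). Itpr1, a calcium release channel of internal stores, was 1.58-fold higher and Atp2b4, a calcium pump, rose by 0.22 on the log2 scale. Plcg1, the phospholipase that makes the second messenger for calcium release, fell by 0.40, the pump gene Atp2b1 by 0.29, the store sensor gene Stim1 by 0.23 and the calmodulin gene Calm2 by 0.19. Orai1, the main channel subunit of T cells, had a log2 fold change of -0.16 (adjusted p = 0.108 by limma).

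Of 8 tested calcineurin subunits and inhibitors, 2 were higher and 3 lower, with a median of -0.07, against 7 higher and 0 lower on the scale centred on T cell markers. On that scale 65.0% of all genes tested were higher and 0.767% lower, against 19.9% and 13.4% on the authors' scaling. The catalytic subunit genes Ppp3cc and Ppp3cb fell by 0.52 and 0.24, while Ppp3ca and the regulatory subunit gene Ppp3r1 had log2 fold changes of -0.04 and -0.02. Cabin1, an inhibitor of calcineurin, fell by 0.25. Rcan3, a paralog of Rcan1, rose by 0.55, with means of 1040 ± 79.4 in the libraries labelled knockout and 709 ± 34.1 in the libraries labelled WT (SD, n = 2 each). Akap5, a scaffold that anchors calcineurin, was 4.23-fold higher at a low level, with 192 and 179 in the libraries labelled knockout and 41.7 and 46.0 in the libraries labelled WT. Rcan2 had too few reads to be tested. Of 7 kinases that phosphorylate NFAT, Csnk1e was 1.92-fold higher and 6 did not pass, with a median of 0.05, against 6 higher and 0 lower on the scale centred on T cell markers.

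Of 16 relatives, partners and upstream factors tested, 3 were higher and 5 lower, with a median of -0.08, against 12 higher and 0 lower on the scale centred on T cell markers. On that scale 65.0% of all genes tested were higher and 0.767% lower, against 19.9% and 13.4% on the authors' scaling. Mef2c, a transcription factor that plasmacytoid dendritic cells and B cells also express, was 84.9-fold higher, with 8262 and 7650 in the libraries labelled knockout and 127 and 60.2 in the libraries labelled WT. It moved beside the plasmacytoid dendritic cell marker Siglech, which had 84171 and 84408 in the libraries labelled knockout and 210 and 194 in the libraries labelled WT. Rxra, a partner of Nr4a1 and Nr4a2 proteins, rose by 0.78 and Elk1, a partner of serum response factor, by 0.34. Hdac7, a deacetylase that holds Nr4a1 silent in thymocytes, fell by 0.48, Nab2, a corepressor of EGR proteins that they induce, by 0.55, and Crem, Elk3 and Elk4 by 0.43, 0.37 and 0.29. Srf had a log2 fold change of 0.21 (adjusted p = 0.549 by limma), and Nfatc4 was at 0 in every library.

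Downstream, 10 of 16 tested NFAT target genes of T cells were lower and 1 higher, with a median of -0.54, against 5 higher and 1 lower with a median of 0.03 on the scale centred on T cell markers. Of all genes tested 13.4% were lower and 19.9% higher, and the T cell marker median was -0.61. On the scale centred on T cell markers 65.0% of all genes tested were higher and 0.767% lower. Il3 was at 0 in every library and Il4 had too few reads to be tested. Fasl, which encodes the death ligand FasL, fell by 0.71, with means of 11504 ± 80.0 in the libraries labelled knockout and 18839 ± 34.4 in the libraries labelled WT (SD, n = 2 each). Havcr2, the inhibitory receptor TIM-3, fell by 0.63. Lag3, an inhibitory receptor that plasmacytoid dendritic cells express as well, was the gene that rose, by 0.55, with means of 29898 ± 1042 in the libraries labelled knockout and 20393 ± 323 in the libraries labelled WT (SD, n = 2 each).

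Of 11 EGR target and anergy genes, 3 were higher and 5 lower, with a median of -0.21, against 8 higher and 0 lower on the scale centred on T cell markers. On that scale 65.0% of all genes tested were higher and 0.767% lower, against 19.9% and 13.4% on the authors' scaling. Dgka and Cblb, a diacylglycerol kinase and a ubiquitin ligase that restrain T cell receptor signals, fell by 0.38 and 0.45. Id3, an inhibitor of E proteins that EGR factors induce in thymocytes, was 4.43-fold higher, with 972 and 787 in the libraries labelled knockout and 212 and 186 in the libraries labelled WT. Sema7a, a membrane-anchored semaphorin, was 3.20-fold higher, with 3355 and 3457 in the libraries labelled knockout and 1085 and 1047 in the libraries labelled WT. Of 15 other immediate early genes, 4 were higher and 8 lower, with a median of -0.16, against 14 higher and 0 lower on the scale centred on T cell markers. Zfp36 and Zfp36l1, which encode proteins that speed the decay of AU-rich transcripts, rose by 0.82 and 0.81, while Ier2 and Tnfaip3 fell by 0.47 and 0.49. Across these 7 lists, marker genes of other cells moved as given above, and their part was not tested.

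**Figure D4:**
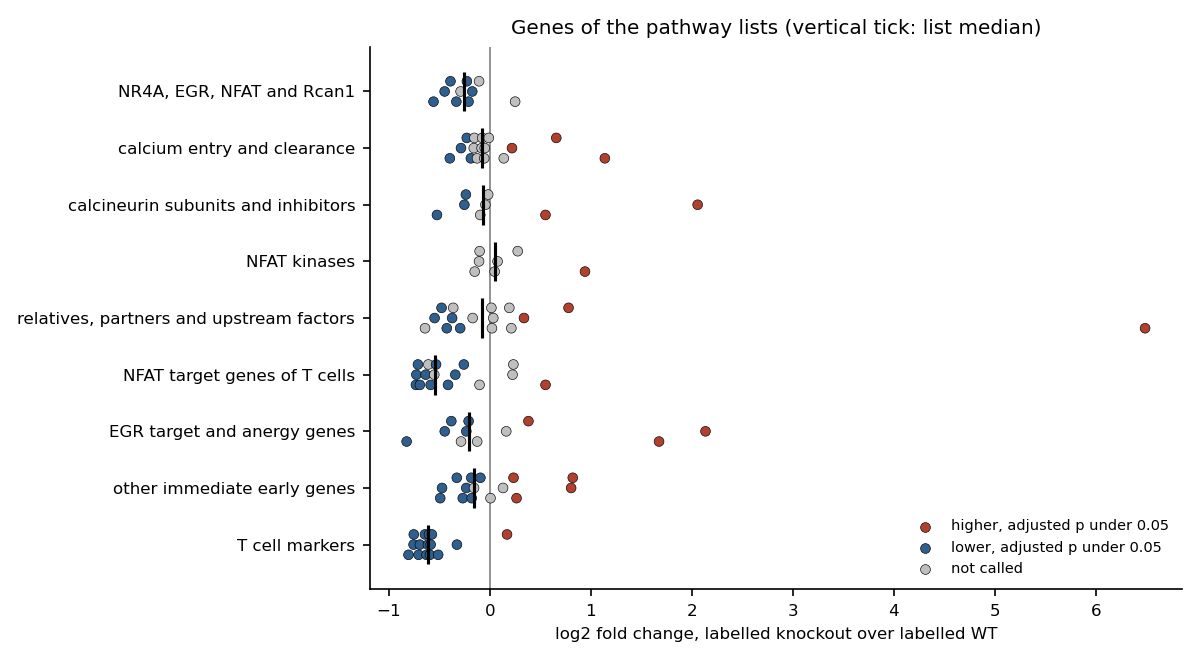
Log2 fold change (horizontal axis) of every tested gene in the 10-gene set, in 7 pathway lists and among T cell markers, 1 point per gene, with a vertical tick at each median; red and blue mark genes higher and lower at an adjusted p under 0.05, all on the authors' scaling, while on the scale centred on T cell markers most pathway genes lie above 0, where the median of all genes tested is 0.59. The ticks lie between -0.61 for T cell markers and 0.05 for NFAT kinases, and Mef2c stands far to the right at 6.49.

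The authors' deposited table, whose log2 fold changes run as WT over knockout, called the same 7 genes. There the values were 0.17 for Nr4a1, 0.33 for Nr4a2, 0.39 for Nr4a3, 0.23 for Egr1, 0.21 for Nfatc1, 0.44 for Nfatc2 and 0.56 for Nfatc3 in the authors' deposited table, with adjusted p from 2.61e-10 to 2.74e-04, where 10.1% of its 21629 genes with an adjusted p were lower and 15.5% higher in the knockout columns. On the recovered whole reads edgeR and DESeq2 also called these 7 lower and 0 of the 10 higher, where edgeR called 14.4% of all genes lower and 20.1% higher, and DESeq2 13.9% lower and 19.0% higher. For Egr2, Egr3 and Rcan1 the authors' deposited table gives 0.11, 0.28 and -0.25, with adjusted p of 0.773, 0.773 and 0.331.

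Genes whose pattern over the 4 libraries was most like that of Nr4a1 were Btg1 and Lrp10, with root mean square differences of 0.0035 and 0.0044 between centred log2 values. For Egr2 they were Cbfa2t2 and Cnot1 (0.0032 and 0.0040), for Nfatc1 Racgap1 and Pfn1 (0.0031 and 0.0037), and for Rcan1 Rreb1 and Socs6 (0.0049 and 0.011). With 4 libraries in 2 groups such likeness is common. Of 11010 genes compared, 875 lay within 0.05 of Nr4a1, 971 of Egr2, 796 of Nfatc1 and 159 of Rcan1.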

How the data were processed

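Polyadenylated RNA of 4 libraries was sequenced, 2 labelled knockout and 2 labelled WT by their titles and genotype labels. The submitters' processing notes name mm10 as the build and DESeq2, StringTie (2.1.4), HISAT2 (2.2.1) and Trim Galore (0.4.4) as tools, without their settings. The annotation, any use of strand and the way StringTie's output became counts were not stated. The authors deposited a signal per gene and library, counts divided by a size factor, and per the file headers a log2 fold change with its error, a Wald score, and raw and adjusted p-values. The values were whole multiples of a step in each library within 0.01 reads (100.0% of values), so whole counts were recovered. They summed to 58899365 to 59724952 per library, with size factors of 0.979 to 1.03. A date stands in place of the name for 24 genes.

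The design named limma for normalized values. Limma 3.58.1 (trend and robust variance) was fitted over all genes to log2(normalized count + 1), for genes at 10 or more in at least 2 libraries, with Benjamini-Hochberg adjustment over 18378 genes and a threshold of 0.05. Fold changes are on that scale, which understates changes of low genes, and "fold" in the text is a ratio of means. Alternatives were other pseudocounts, filters and scalings, the replicate number as a block, omission of each library, and edgeR 4.0.16 and DESeq2 1.42.0 on the recovered counts. The limma and edgeR fits were run on simulated counts, in which fewer genes changed than here and by more than the 10 genes did. That run therefore does not bear on changes as small as theirs. Exon lengths, coordinates and overlaps came from GENCODE M21 (GRCm38, the assembly of mm10), where 95.2% of the table's names occur once. Levels per kilobase use all annotated exons of a gene, which need not be the transcripts present. Promoter sequences are from RefSeq (GRCm38.p6). TGCGTCA and TGACGT were added to the motifs after the sequences had been seen.

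The members and lists were chosen with earlier results of these data known. The genes named are the members, Irf8, the 2 most abundant of each marker list, up to 2 higher and 2 lower genes per pathway list with the smallest adjusted p, and the genes most like 4 members over the libraries. Others in the lists (Tcf7, Atp2b4, Stim1, Calm2, Orai1, Ppp3ca, Ppp3cb, Ppp3r1, Elk1, Nab2, Elk3, Elk4, Srf, Lyz2, Itgam, C1qb, Csf1r, Adgre1, Xcr1, Cd68, Fcer1g, S100a8, Batf3, Clec9a) were named after their values were seen. Within each group the pair of libraries was more different than counting error gives (chi-square over its degrees of freedom 6.45 for knockout-labelled, 21.7 for WT-labelled libraries), so both were kept as samples. The labels give no batch.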

Additional observations from a re-analysis of the deposited data

How the results depend on the processing

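Of 140 values for the 10 genes (10 genes under 14 alternatives), 125 kept their direction and their side of the threshold. Centring on T cell markers turned 9 signs, to 0.40 for Nr4a1, 0.24 for Nr4a2, 0.18 for Nr4a3, 0.35 for Egr1, 0.47 for Egr2, 0.29 for Egr3, 0.36 for Nfatc1, 0.13 for Nfatc2 and 0.017 for Nfatc3, and brought 11950 genes higher and 141 lower, 6 members higher and 0 lower. Centring on the median gene turned Rcan1 to -0.050, made Egr2 pass at -0.41 and gave 2389 genes higher and 7210 lower. These scalings put 98.8% and 24.9% of calls higher, against 59.7% with the authors' scaling and 47.0% for edgeR with upper-quartile factors. Leaving out each library in turn gave 2195 to 4193 genes higher, 1540 to 2818 lower, and 5 to 7 members lower, with the lowest counts without a library labelled knockout (2210 higher and 1552 lower without replicate 1, 2195 and 1540 without replicate 2). The cause of these differences was not tested. Pseudocounts of 0.1 and 10, no filter, a minimum of 50, edgeR with TMM or upper-quartile factors and DESeq2 changed no call among the 10 genes.

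With the replicate block, 3415 genes were higher and 2168 lower, and 0 members higher and 7 lower, and no member's call changed. The correlation between same-numbered libraries of their deviations from the group means was 0.017 over the genes tested and 0.0914 over those with a mean of at least 100, so the numbers are not shown to pair the libraries. Precision was lowest for the genes with the fewest reads, Egr3 (83 to 110 reads per library, SE 0.23), Rcan1 (603 to 808 reads, SE 0.10) and Egr2 (705 to 755 reads, SE 0.09), which are the 3 that did not pass.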
